A study of Mus musculus with 6 samples.

Results

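The 10 endothelial junction genes described here were *Cdh5*, *Ctnnd1*, *Pecam1*, *Esam*, *F11r*, *Jam2*, *Jam3*, *Cldn5*, *Ocln* and *Tjp1*. They were chosen by name as genes that encode adhesion proteins, or the cytoplasmic proteins bound to them, at contacts between neighbouring endothelial cells (ECs). The rule lists names and no measured value, but it was set with earlier results of these data known. The study had already reported *Pecam1*, *Cdh5* and *Cldn5* as unchanged by the deletion. They are 10 of the 55416 genes in the deposited RNA-Seq count table, and all 10 passed the filter on low counts. RNA had been sequenced from mGFP+ ECs sorted from ventricles of E15.5 mouse hearts, with 3 libraries per genotype. *ControlΔEC* embryos were *Pdgfb*(CreERT2/+); *Wt1*(+/+); *R26*(mTmG/+), and *Wt1KOΔEC* embryos were *Pdgfb*(CreERT2/+); *Wt1*(loxP/loxP); *R26*(mTmG/+). Both genotypes therefore carried the tamoxifen-inducible Cre and the membrane reporter, and both were exposed to tamoxifen at 75 mg/kg given to the mother over E11.5 to E13.5. Of these stated conditions only the *Wt1* alleles differed, and a batch cannot be told apart from genotype (see the processing section). The Cre is driven from *Pdgfb*, so recombination, and with it the GFP used for sorting, is limited to cells in which that driver was active, and WT1 made by other cardiac cells was not targeted. The labels call the libraries biological replicates without saying how many embryos each holds, so the p-values below measure the spread between these libraries. In a bulk library a lower value can come from fewer cells of a type or from less RNA per cell, and these cannot be told apart.

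ECs are held together by adherens junctions and tight junctions that are intermingled along the cell border. In adherens junctions VE-cadherin, the product of *Cdh5*, binds VE-cadherin on the next cell, and its tail is held by p120-catenin (*Ctnnd1*), which keeps it at the membrane, and by beta-catenin or plakoglobin, which link it to actin through alpha-catenin. Tight junctions contain claudin-5 (*Cldn5*), the main endothelial claudin, occludin (*Ocln*) and members of the junctional adhesion molecule family (*F11r*, *Jam2*, *Jam3*, *Esam*), with ZO-1 (*Tjp1*) as the scaffold underneath. PECAM1, also known as CD31, lies at the border outside both structures and is the usual stain for vessels in heart sections. These contacts set how leaky a vessel is and take part in sprouting and lumen formation, and they are remodelled while the coronary plexus forms.

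The libraries held between 26037324 and 44779020 counts, and 3 counts were worth 0.0608 to 0.119 CPM (counts scaled to the library size after TMM normalization, the unit of every level below). These limits cover counting error only, because the amplified reads are not independent molecules. *Wt1*, the deleted gene, was at 145, 109.6 and 149 CPM in *ControlΔEC* replicates 1, 2 and 3 and at 14.0, 18.4 and 21.3 CPM in *Wt1KOΔEC* replicates 1, 2 and 3, lower in every *Wt1KOΔEC* library. For *Wt1* the log2 fold change was -2.91 (SE 0.22, edgeR's quasi-likelihood test, adjusted p = 0.00319). The 9 endothelial marker genes summed to between 5089 and 5848 CPM in *ControlΔEC* and to between 4902 and 5826 CPM in *Wt1KOΔEC*. The 7 erythroid genes of a list described below summed to between 6570 and 14347 CPM and to between 5107 and 8494 CPM. With erythroid sums of this size, the endothelial sums alone do not show how pure the sort was. The source of the erythroid reads was not tested. The 18S rRNA gene *Rn18s* took between 13.2% and 15.3% of the counts in *ControlΔEC* and between 21.1% and 26.5% in *Wt1KOΔEC*, and mitochondrially encoded genes took between 5.21% and 6.61% and between 1.68% and 4.57%. Both shares separated the genotypes completely, and their part in the results below was not tested.

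No junction gene passed the test for a difference between the genotypes. A gene was called a DEG at an adjusted p below 0.05 and an absolute log2 fold change above 0.58. None of the 10 passed in edgeR's quasi-likelihood fit (0 called), against 0.0736% of the 16296 genes tested (0.0491% higher and 0.0245% lower in *Wt1KOΔEC*). At an unadjusted p below 0.05 the count was 1, which was *Ocln*, against 13.1% of all genes tested, and it was also 1 when the fold limit was added, against 10.1%. DESeq2, limma-voom and edgeR's likelihood ratio test also called 0 of the 10, where DESeq2 called 3.68% of the same genes and the likelihood ratio test 2.65%. *Ocln* was also the single junction gene whose 3 *Wt1KOΔEC* values all lay on one side of the 3 *ControlΔEC* values, a pattern found for 19.3% of all genes tested, so that a count of 1 in 10 is near the background on either measure. The median log2 fold change of the 10 genes (*Wt1KOΔEC* over *ControlΔEC* throughout) was -0.04, and that of all genes tested was -0.03. The point estimate was positive for 4 junction genes and negative for 6. Their summed level was between 3702 and 4995 CPM in *ControlΔEC* and between 3823 and 4553 CPM in *Wt1KOΔEC*, so the second range lay within the first.

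**Figure D1:**
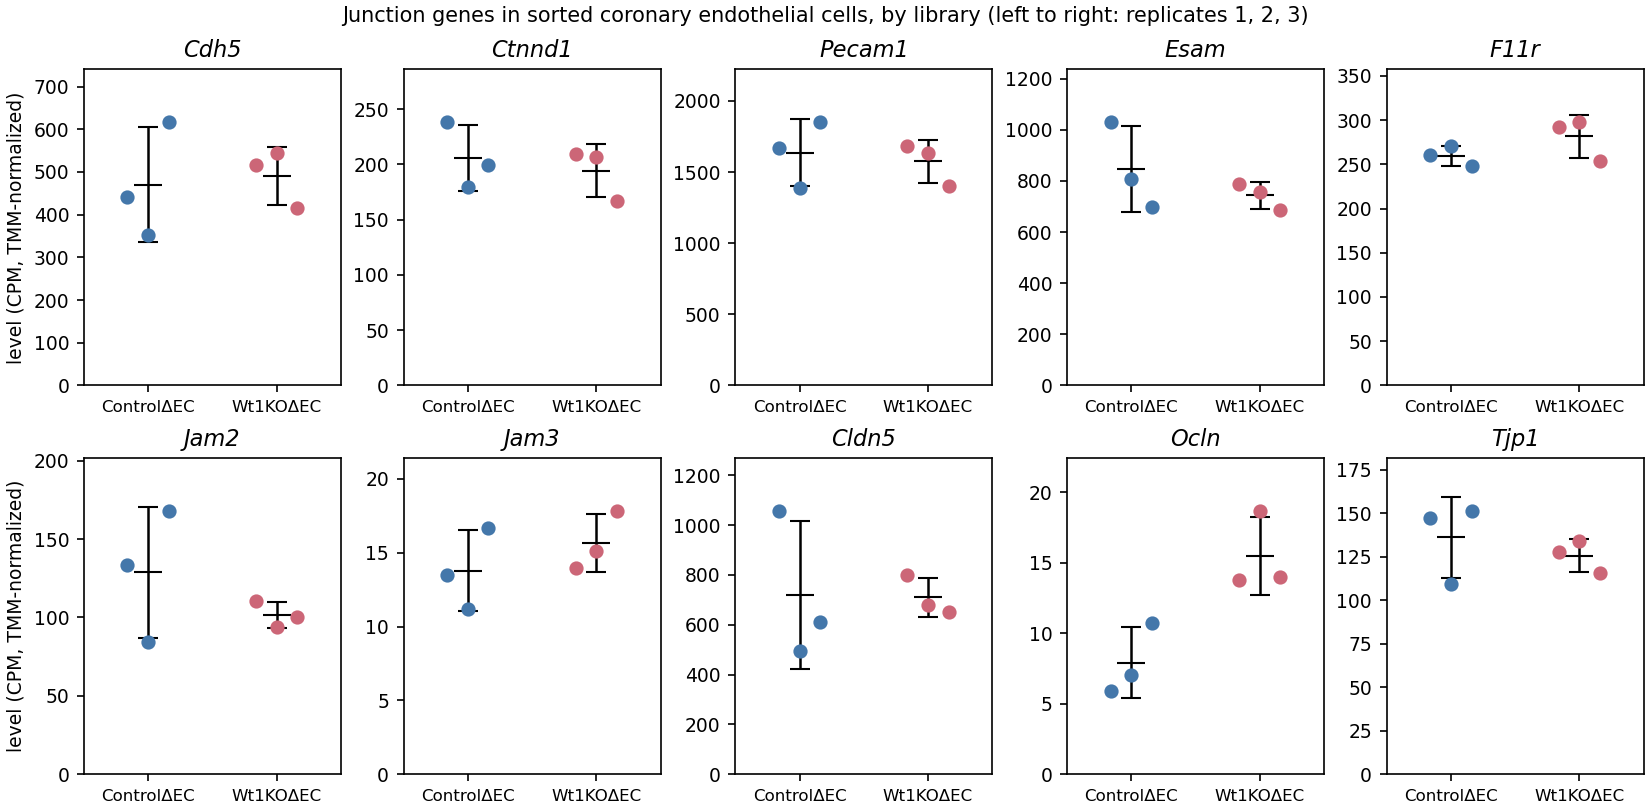
Level of each junction gene in every library, in CPM after TMM scaling on a linear axis that starts at 0, with *ControlΔEC* in blue, *Wt1KOΔEC* in red, replicates 1, 2 and 3 from left to right within a genotype, and black lines for the mean and SD of 3 libraries. The genotypes overlap in 9 panels, and *Ocln* is the panel in which they do not, from 5.92 to 10.7 CPM against 13.8 to 18.7 CPM.

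*Cdh5* (ENSMUSG00000031871.10, chr8:104828231-104871143 on the plus strand of GRCm39) encodes the endothelial cadherin of the adherens junction. It was at 441, 353 and 617 CPM in *ControlΔEC* replicates 1, 2 and 3, and at 515, 544 and 415 CPM in *Wt1KOΔEC*. Both the highest and the lowest value belonged to *ControlΔEC*, and the 3 *Wt1KOΔEC* values fell between them. The log2 fold change was 0.06 (SE 0.22, 95% interval -0.43 to 0.55, edgeR adjusted p = 0.95). *Ctnnd1* (ENSMUSG00000034101.15, chr2:84425959-84489326, minus strand) encodes p120-catenin, which binds the cadherin tail next to the membrane and slows its removal by endocytosis. Its level was 238, 179.6 and 199.6 CPM in *ControlΔEC* and 209.6, 206 and 166 CPM in *Wt1KOΔEC*. The lowest value was *Wt1KOΔEC* replicate 3 and the highest *ControlΔEC* replicate 1, with the other 4 mixed between them. Its log2 fold change was -0.08 (SE 0.17, 95% interval -0.47 to 0.30, edgeR adjusted p = 0.91). In the GRCm39 annotation 37.6% of the exonic bases of *Ctnnd1* also belong to *Gm28635*, a read-through gene on the same strand, but that gene was at 0 in the table.

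*Pecam1* (ENSMUSG00000020717.20, chr11:106543689-106641454, minus strand) encodes a homophilic adhesion receptor of the immunoglobulin superfamily that takes part in flow sensing and in the passage of leukocytes. Its levels were the highest of the 10 genes before division by length, at 1667, 1385 and 1852 CPM in *ControlΔEC* and 1684, 1636 and 1404 CPM in *Wt1KOΔEC*. Here too the *Wt1KOΔEC* values lay within the *ControlΔEC* range. *Pecam1* had a log2 fold change of -0.05 (SE 0.15, 95% interval -0.40 to 0.29, edgeR adjusted p = 0.94). For these 3 genes, as for *Esam*, *F11r* and *Tjp1* below, the 95% interval lay inside the limits of -0.58 and 0.58, so that in 6 of the 10 genes a change of the size used to define a DEG was outside the interval. *Jam2*, *Jam3*, *Cldn5* and *Ocln* had wider intervals that reached past a limit.

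The junctional adhesion molecules are small immunoglobulin-like proteins that pair across the border and bind polarity proteins such as PAR3 inside the cell. *Esam* (chr9:37439344-37449615, plus strand) encodes a member restricted largely to endothelium and platelets. It was at 1031, 808 and 699 CPM in *ControlΔEC* and 787, 758 and 685 CPM in *Wt1KOΔEC*. *ControlΔEC* replicates 1 and 2 held the highest values, while replicate 3 was lower than 2 of the *Wt1KOΔEC* libraries. *Esam* had a log2 fold change of -0.19 (SE 0.17, 95% interval -0.57 to 0.20, edgeR adjusted p = 0.74). *F11r* (chr1:171265092-171292958, plus strand), which encodes JAM-A, was at 260.0, 270.3 and 248 CPM in *ControlΔEC* and at 293, 298 and 254 CPM in *Wt1KOΔEC*. *Wt1KOΔEC* replicates 1 and 2 were above every *ControlΔEC* library, and replicate 3 lay among them. That gave *F11r* a log2 fold change of 0.12 (SE 0.14, 95% interval -0.20 to 0.44, edgeR adjusted p = 0.82), with the smallest standard error of the 10.

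*Jam2* (chr16:84570764-84623269, plus strand) encodes JAM-B, a partner of JAM-C in vessels. It was at 134, 84.6 and 168 CPM in *ControlΔEC*, and at 110.4, 94.1 and 100.5 CPM in *Wt1KOΔEC*. The lowest value of all and the 2 highest came from *ControlΔEC*, and the *Wt1KOΔEC* libraries stood close together between them. Its log2 fold change was -0.34 (SE 0.24, 95% interval -0.87 to 0.19, edgeR adjusted p = 0.62), and it was -0.57 without *ControlΔEC* replicate 2 and -0.10 without *ControlΔEC* replicate 3. Some 4.38% of its exonic bases lie opposite *Atp5pf*, which averaged 138 CPM, and the library protocol does not mark strand. *Jam3* (chr9:27005652-27066915, minus strand), encoding JAM-C, was at 13.5, 11.2 and 16.7 CPM in *ControlΔEC* and 14.0, 15.1 and 17.8 CPM in *Wt1KOΔEC*. The lowest library was *ControlΔEC* replicate 2 and the highest *Wt1KOΔEC* replicate 3, with overlap between. For *Jam3* the fitted log2 fold change was 0.19 (SE 0.27, 95% interval -0.42 to 0.79, edgeR adjusted p = 0.86). *Jam3* shares 20.3% of its exonic bases with *Gm48796* (3.50 CPM on average) and 11.2% with *Ncapd3* (55.3 CPM), both on the opposite strand, so reads from these bases are uncertain in origin.

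*Cldn5* (chr16:18595597-18597012, plus strand) encodes the claudin that seals endothelial tight junctions and is a single-exon gene in the annotation's 1 transcript. Its level was 1058, 495 and 610.4 CPM in *ControlΔEC* and 798, 681 and 651 CPM in *Wt1KOΔEC*. *ControlΔEC* replicate 1 was well above and replicates 2 and 3 below all the *Wt1KOΔEC* libraries. Over all 6 libraries the log2 fold change was -0.02 (SE 0.26, 95% interval -0.61 to 0.57, edgeR adjusted p = 0.99). Without *ControlΔEC* replicate 1 it was 0.36 and was again not called. *Tjp1* (chr7:64945898-65177529, minus strand) encodes ZO-1, the scaffold that ties claudins, occludin and the adhesion molecules to actin. It was at 147, 109 and 151 CPM in *ControlΔEC* and at 127, 134 and 116 CPM in *Wt1KOΔEC*, again with the *Wt1KOΔEC* values inside the *ControlΔEC* range. *Tjp1* had a log2 fold change of -0.11 (SE 0.17, 95% interval -0.50 to 0.27, edgeR adjusted p = 0.86).

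*Ocln* (chr13:100630334-100689535, minus strand) encodes occludin, a tetraspan tight junction protein that is abundant in epithelia and in tight endothelia such as that of the brain. It was at 5.92, 7.02 and 10.7 CPM in *ControlΔEC* replicates 1, 2 and 3, and at 13.8, 18.7 and 14.0 CPM in *Wt1KOΔEC*. Every *Wt1KOΔEC* library was therefore above every *ControlΔEC* library, with means of 7.89 ± 2.51 CPM and 15.48 ± 2.77 CPM (SD, n = 3 each). The log2 fold change was 0.98 (SE 0.33, 95% interval 0.24 to 1.71), with an unadjusted p of 0.015 and an adjusted p of 0.27 by edgeR's quasi-likelihood test. The interval lay above 0, but the adjusted p did not pass, and DESeq2 gave a log2 fold change of 0.97, with an adjusted p of 0.14. Over the 19 alternative fits the estimate ran from 0.81 to 1.26 and the adjusted p from 0.073 to 0.57, so the direction held in all of them and the call in none. Complete separation with the higher values in *Wt1KOΔEC* was seen for 10.3% of all genes tested.

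**Figure D2:**
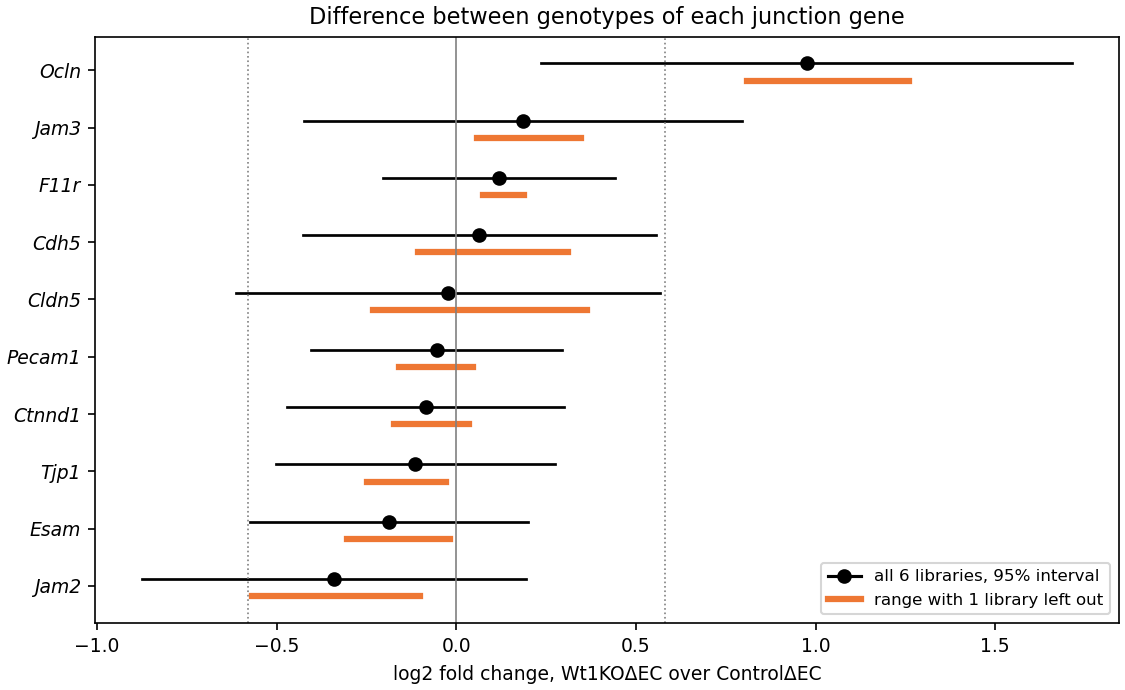
Log2 fold change of each junction gene, *Wt1KOΔEC* over *ControlΔEC*, with black points and lines for the fit to all 6 libraries and its 95% interval, an orange bar for the range obtained when each library was left out in turn, and dotted lines at the limits of -0.58 and 0.58. The intervals of 9 genes hold 0, that of *Ocln* runs from 0.24 to 1.71, and the orange bars of *Cdh5*, *Cldn5*, *Pecam1* and *Ctnnd1* cross 0.

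WT1 is a zinc-finger protein that binds GC-rich DNA, and the bases just before the start of *Ocln*, the junction gene with the largest difference, are shown here with those of *Tjp1* and *Cldn5*, its scaffold and its fellow strand protein, for which the difference was small. Each run is the 250 bases upstream of the annotated start on the gene's own strand, from RefSeq on GRCm38.p6, and capitals mark the letters CGCCCCCGC, which read GCGGGGGCG on the other strand.
Ocln, chr13:100552719-100552968, minus strand: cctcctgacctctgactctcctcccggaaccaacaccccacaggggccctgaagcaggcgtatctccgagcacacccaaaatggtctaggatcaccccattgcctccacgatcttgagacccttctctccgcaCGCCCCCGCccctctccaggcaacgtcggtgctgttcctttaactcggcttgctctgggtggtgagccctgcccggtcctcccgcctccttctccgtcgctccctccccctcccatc
Tjp1, chr7:65371245-65371494, minus strand: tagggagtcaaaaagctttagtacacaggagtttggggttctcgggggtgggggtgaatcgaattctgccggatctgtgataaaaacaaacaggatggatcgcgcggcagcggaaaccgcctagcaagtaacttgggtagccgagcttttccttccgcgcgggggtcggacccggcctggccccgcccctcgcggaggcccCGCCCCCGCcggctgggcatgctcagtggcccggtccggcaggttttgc
Cldn5, chr16:18776597-18776846, plus strand: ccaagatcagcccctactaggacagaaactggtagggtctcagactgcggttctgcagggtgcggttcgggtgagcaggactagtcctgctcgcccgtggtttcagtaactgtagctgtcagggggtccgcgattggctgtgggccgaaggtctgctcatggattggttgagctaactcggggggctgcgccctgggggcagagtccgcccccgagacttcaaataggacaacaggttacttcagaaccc
GCGGGGGCG, a site first described for WT1 and for EGR1, occurred once before *Ocln*, 117 to 109 bases upstream of the start, and once before *Tjp1*, 49 to 41 bases upstream, and not in the *Cldn5* run. Searched on both strands, these letters were present in 2.91% of the 32851 RefSeq windows, each of 300 bases from 250 before to 50 after a start. Windows were given for 5 of the 10 genes (*F11r*, *Ctnnd1*, *Tjp1*, *Ocln* and *Cldn5*, with 7 windows in all), and the second *Ocln* window held no match. GCGTGGGCG (0.612% of windows) and GCGTGGGAG (0.472%) were in none of the 7, while the shorter GTGGGAG, which lies inside GCGTGGGAG and was found in 9.73% of windows, was in both windows of *Ctnnd1*. A match of letters is a description of the sequence, and binding was not measured in these libraries. Both genes with a GCGGGGGCG match are given above, and their log2 fold changes were 0.98 for *Ocln* and -0.11 for *Tjp1*.

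Levels of different genes were compared per kb of exonic length, since longer transcripts give more fragments. On this scale the *ControlΔEC* means were 509 ± 210 CPM per kb for *Cldn5*, 278 ± 55.6 for *Esam*, 163 ± 23.5 for *Pecam1* and 107 ± 30.7 for *Cdh5* (SD, n = 3 each). All 4 are proteins of the cell surface, but so are *Jam2*, *Jam3* and *Ocln* at the bottom of the order. *F11r* followed at 74.9 ± 3.28 CPM per kb, and the cytoplasmic partners *Ctnnd1* and *Tjp1* stood lower at 17.3 ± 2.51 and 17.2 ± 2.92. *Jam2* was at 11.6 ± 3.79, *Jam3* at 2.01 ± 0.40 and *Ocln* at 0.840 ± 0.27 CPM per kb, so that the first and the last place differed by a ratio of 606. The order of the *Wt1KOΔEC* means was the same, from 501 ± 54.8 CPM per kb for *Cldn5* to 1.65 ± 0.29 for *Ocln*. *Ctnnd1* was above *Tjp1* in 4 of the 6 libraries and these neighbours did not differ beyond their spread, whereas every other gene was above the next one in 6 of 6 libraries. *Ocln* remained in the last place in both genotypes, below *Jam3*, despite its higher values in *Wt1KOΔEC*. The middle of the order depends on which length is used, and with coding length *Pecam1* took place 2 and *Esam* place 3, while *Jam2* moved up to place 6. The ratio of 606 depends on it too. Per kb of coding length the *ControlΔEC* means were 1102 ± 454 CPM for *Cldn5* and 5.05 ± 1.61 CPM for *Ocln*, which are less far apart.

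**Figure D3:**
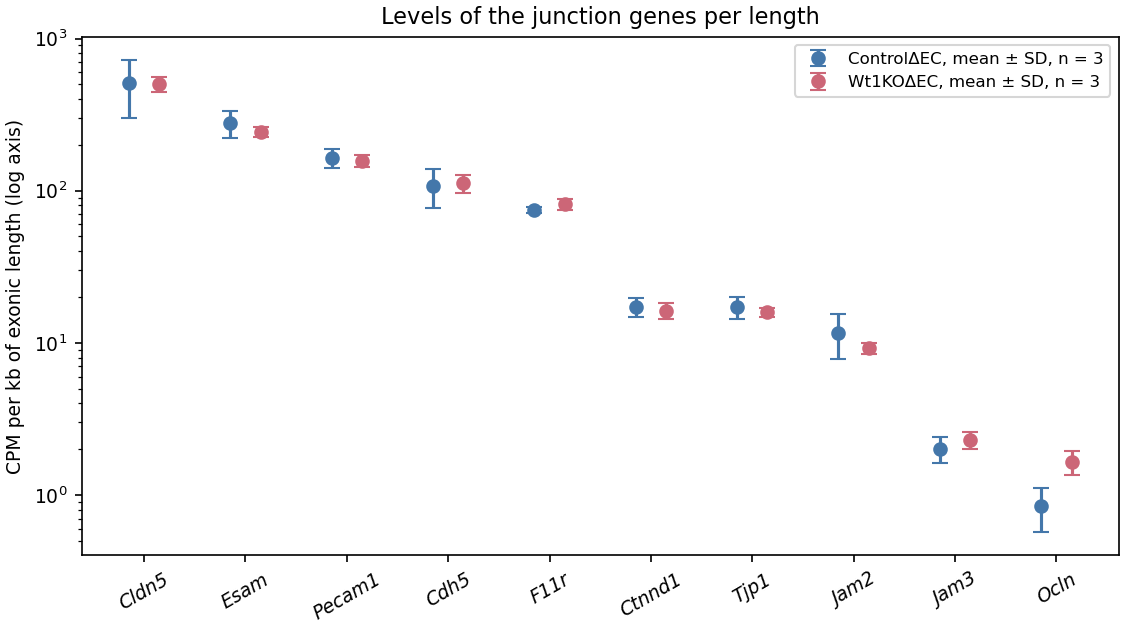
Levels of the 10 junction genes in CPM per kb of exonic length on a log axis, as mean and SD of 3 libraries for *ControlΔEC* in blue and *Wt1KOΔEC* in red, ordered by the *ControlΔEC* mean. The order runs from *Cldn5* at 509 and 501 to *Ocln* at 0.840 and 1.65, and *Ocln* is the gene whose error bars do not meet.

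Ratios of genes within a library do not depend on the scaling between libraries. The ratio of *Cldn5* to *Cdh5*, tight to adherens junction, was 2.40, 1.40 and 0.989 in *ControlΔEC* replicates 1, 2 and 3 and 1.55, 1.25 and 1.57 in *Wt1KOΔEC*. The *ControlΔEC* libraries spanned a wider range than the *Wt1KOΔEC* libraries and contained all of them. The log2 difference between genotypes was -0.04 (2-sided exact permutation test, p = 1), and it had the opposite sign without *ControlΔEC* replicate 1 (0.30) or without *Wt1KOΔEC* replicate 2 (0.06). The ratio of *Ocln* to *Tjp1*, strand protein to scaffold, was 0.0402, 0.0641 and 0.0708 in *ControlΔEC* and 0.108, 0.140 and 0.121 in *Wt1KOΔEC*. These values did not overlap, as for *Ocln* itself, and the log2 difference was 1.11 (2-sided exact permutation test, p = 0.1, the smallest that 3 against 3 libraries allow).

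The 3 *ControlΔEC* libraries were further apart than the 3 *Wt1KOΔEC* libraries for nearly all of these genes. The coefficient of variation was larger in *ControlΔEC* for 9 of the 10, the exception being *F11r* (4.38% in *ControlΔEC*, 8.55% in *Wt1KOΔEC*). For *Cldn5* it was 41.2% against 10.9%, for *Jam2* 32.6% against 8.09%, and for *Cdh5* 28.6% against 13.8%. The highest library was not the same for each gene, since *ControlΔEC* replicate 1 was highest for *Cldn5*, *Esam* and *Ctnnd1* and replicate 3 for *Cdh5*, *Pecam1*, *Jam2* and *Tjp1* among all 6 libraries. A larger coefficient in *ControlΔEC* was common in the data, being seen in 69.7% of the 8472 tested genes with a mean of at least 10 CPM, with medians of 20.9% and 13.8% over those genes and of 20.0% and 10.2% over the junction genes. These are descriptions of 3 libraries per genotype and were not tested.

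The genes whose profiles over the 6 libraries were most like those of the 2 defining members were found from log2 CPM centred on each gene's mean. For *Cldn5* they were *Cpne3*, *Rad23b* and *AI506816*, with mean absolute differences of 0.082, 0.084 and 0.085 log2 units, against a median of 0.35 over the 8471 genes compared. For *Cdh5* they were *Ski*, *Rbms3* and *Sik1*, at 0.041, 0.053 and 0.065 log2 units against a median of 0.32. None of these is another junction gene, and the likeness is one of 6 values chosen from all the genes compared.

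The other genes of the junction were described from 4 lists that together held 56 genes, of which 52 passed the filter and 2, *Cdh1* (E-cadherin) and *Jaml*, were at 0 in every library. The edgeR fit called 0 of the 52. At an unadjusted p below 0.05, 1 was higher and 7 were lower in *Wt1KOΔEC*, against 5.96% and 7.12% of all genes tested. DESeq2 called 1 of them, *Rap1b*, and limma-voom and edgeR's likelihood ratio test 0. Complete separation was seen in 3 upward and 5 downward, against 10.3% and 8.97% of all genes tested.

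Of the adherens junction list 12 of 13 genes were tested, with a median log2 fold change of -0.20. The catenins with the highest levels were *Ctnnb1*, which encodes beta-catenin, at a log2 fold change of -0.02 (SE 0.15), and *Jup*, which encodes plakoglobin, at -0.05 (SE 0.16). Among genes of this list with a mean of at least 10 CPM, the largest differences were those of *Afdn* and *Nectin2*. *Afdn*, which encodes afadin, the actin-binding partner of nectins, was at 80.9, 70.4 and 82.5 CPM in *ControlΔEC* and at 45.7, 56.9 and 59.2 CPM in *Wt1KOΔEC*. Its genotypes did not overlap, at a log2 fold change of -0.53 (SE 0.17, edgeR adjusted p = 0.25). *Nectin2*, a nectin, was at 106, 125 and 98.2 CPM in *ControlΔEC* and at 167, 154 and 137 CPM in *Wt1KOΔEC*. It was separated in the opposite direction, at 0.48 (SE 0.16, edgeR adjusted p = 0.27).

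The tight junction and polarity list had 16 of 18 genes tested and a median of 0.01. *Amotl2*, an angiomotin family protein that links VE-cadherin to actin, was at 290.3, 207 and 314 CPM in *ControlΔEC* and 338, 319 and 325 CPM in *Wt1KOΔEC*, at a log2 fold change of 0.27 (SE 0.18, edgeR adjusted p = 0.59). *Amotl1*, of the same family, was at 0.01 (SE 0.16). The polarity scaffold *Pard3* (PAR3, bound by the JAM proteins) was at 32.4, 26.9 and 18.4 CPM in *ControlΔEC* and 10.7, 15.8 and 16.3 CPM in *Wt1KOΔEC*. Its values did not overlap, with a log2 fold change of -0.86 (SE 0.29, edgeR adjusted p = 0.27). *Magi1*, a scaffold found at both kinds of junction, was at 38.9, 23.0 and 20.2 CPM in *ControlΔEC* and 13.5, 19.2 and 17.2 CPM in *Wt1KOΔEC*, also without overlap, at -0.72 (SE 0.30, edgeR adjusted p = 0.36). Without *ControlΔEC* replicate 1 *Magi1* was at -0.37.

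The list of other surface proteins had 10 of 11 genes tested and a median of -0.12. *Cd34*, a sialomucin of the luminal surface and of tip cells, was at 1700.3, 1260.4 and 1535 CPM in *ControlΔEC* replicates 1, 2 and 3 and at 1201, 1215 and 955 CPM in *Wt1KOΔEC*. The genotypes did not overlap, and *Cd34* had a log2 fold change of -0.42 (SE 0.17, edgeR adjusted p = 0.33). *Mcam* (CD146) was at -0.20 (SE 0.17) and *Cd99l2* at -0.26 (SE 0.34).

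The signalling list holds the small GTPase RAP1 with its activator and effectors, the CCM proteins and kinases and other proteins that act on VE-cadherin. All 14 genes were tested, 13 had a negative log2 fold change, as did 8474 of the 16296 genes tested, and the median was -0.29. *Rasip1*, a RAP1 effector needed for vessel lumens, was at 630.4, 659 and 125 CPM in *ControlΔEC* and 172, 209 and 153 CPM in *Wt1KOΔEC*. *ControlΔEC* replicate 3 was lower than every *Wt1KOΔEC* library, and the other 2 *ControlΔEC* libraries were far higher. *Rasip1* had a log2 fold change of -1.41 (SE 0.50, edgeR adjusted p = 0.29) over all libraries, and without *ControlΔEC* replicate 3 it was -1.86, with an edgeR adjusted p of 0.021, against 0.021 to 0.61 over all alternative fits. *Rap1b*, one of the RAP1 genes, was at 291, 147 and 99.6 CPM in *ControlΔEC* and at 83.3, 68.2 and 105 CPM in *Wt1KOΔEC*. *ControlΔEC* replicate 3 lay below *Wt1KOΔEC* replicate 3, and the remaining *ControlΔEC* values were above all others. For *Rap1b* it was -1.07 (SE 0.36, edgeR adjusted p = 0.27), with an adjusted p of 0.035 by DESeq2 and of 0.033 to 0.58 over all alternative fits. Without *ControlΔEC* replicate 1 the log2 fold change of *Rap1b* was -0.53. *Heg1*, a receptor that binds the CCM complex, was at -0.26 (SE 0.18). *Fgd5*, an endothelial exchange factor for CDC42 that belongs to the list but is named on seeing its values, was at -0.57 (SE 0.20, edgeR adjusted p = 0.29).

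**Figure D4:**
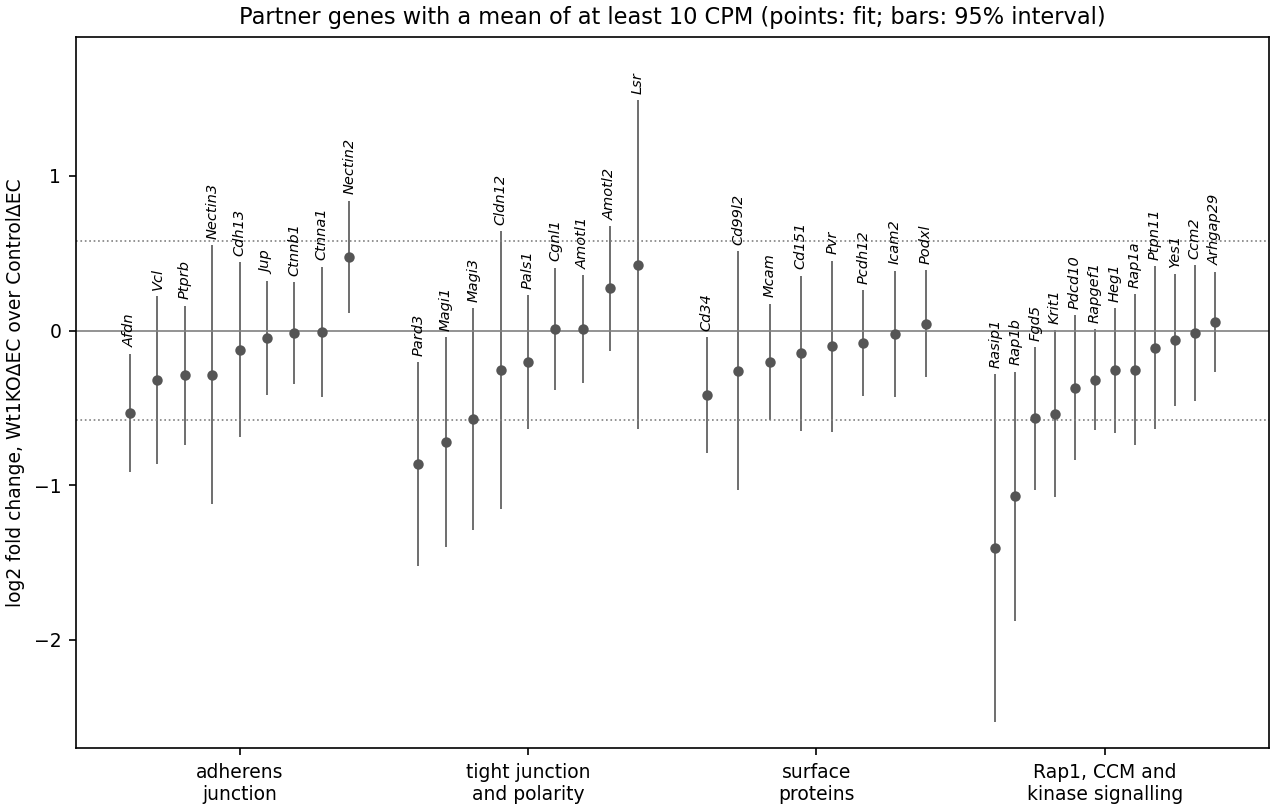
Log2 fold change, *Wt1KOΔEC* over *ControlΔEC*, of the 38 partner genes with a mean of at least 10 CPM, grouped by list and ordered within a list, with the fitted value as a point, its 95% interval as a line and dotted lines at -0.58 and 0.58. Most intervals hold 0, 1 lies above it (*Nectin2*, at 0.48) and 7 lie below it (*Afdn*, *Pard3*, *Magi1*, *Cd34*, *Rap1b*, *Rasip1* and *Fgd5*). *Rasip1* at -1.41 and *Rap1b* at -1.07 have the lowest points and wide intervals.

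*Ocln* was set beside genes and marker lists that could show other cells in the sort. Tricellulin (*Marveld2*), a relative of occludin at tricellular contacts, was at 1.54, 0.162 and 3.92 CPM in *ControlΔEC* and 4.91, 5.31 and 8.51 CPM in *Wt1KOΔEC*. *Cxadr*, an adhesion protein of epithelia and cardiomyocytes, was at 1.14, 1.80 and 6.17 CPM in *ControlΔEC* and 4.61, 5.73 and 9.66 CPM in *Wt1KOΔEC*. Both are on the partner lists and are named on seeing their values, so their direction is no test. The first was separated between genotypes while the second overlapped. Their log2 fold changes were 1.74 (SE 0.93) and 1.14 (SE 0.69), with edgeR adjusted p of 0.48 and 0.55. Other partner genes of low level went both ways. *Plekha7* was at -0.52 (SE 1.58), *Clmp* at -0.43 (SE 1.49) and *Patj* at -0.30 (SE 1.58), while *Cgn* was at 1.23 (SE 1.17) and *Cldn3* at 0.82 (SE 1.92).

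The epithelial list (*Epcam*, *Krt8*, *Krt18*, *Cldn4*, *Cldn7* and *Esrp1*) summed to between 0.832 and 11.1 CPM in *ControlΔEC* and between 11.9 and 17.5 CPM in *Wt1KOΔEC*, and its lowest edgeR adjusted p was 0.43. *Krt18* was its most abundant gene, 1 of 5 genes was separated upward (10.3% of all genes tested), and *Esrp1* was at 0 in every library. The 8 epicardial genes summed to between 11.7 and 18.04 CPM in *ControlΔEC* and between 17.9 and 54.9 CPM in *Wt1KOΔEC*, with a lowest edgeR adjusted p of 0.22, 2 genes higher at an unadjusted p below 0.05 (*Upk3b* and *Msln*, against 5.96% of all genes tested) and 4 of 8 separated upward (against 10.3%). Epicardium is a mesothelial epithelium that covers the ventricles. The epithelial sums did not overlap between genotypes and the epicardial sums did, and their part in the difference of *Ocln* was not tested. Among the other lists, fibroblast genes summed to between 314 and 475 CPM in *ControlΔEC* against 526 to 697 CPM in *Wt1KOΔEC* (1 of 7 called higher by edgeR, against 0.0491% of all genes tested). The called gene was *Col1a1*, at 114 ± 12.5 CPM in *ControlΔEC* and 290 ± 40.0 CPM in *Wt1KOΔEC*, which the study names as a fibroblast and also as a venous marker. *Postn*, with the highest mean level of that list, was at a log2 fold change of -0.16 (SE 0.25), and the other 6 were positive. Endocardial genes summed to 255 to 353 against 360.3 to 445 CPM and lymphatic genes to 267 to 283 against 277 to 370.2 CPM. Mural cell genes went the other way in sum, at 469 to 635 CPM in *ControlΔEC* against 327 to 382 CPM in *Wt1KOΔEC*. Of these 8 genes 0 were called, 7 were negative and 1 positive, and 4 were separated downward (8.97% of all genes tested). *Rgs5* was lowest at -2.50 (SE 0.57, edgeR adjusted p = 0.16), while *Acta2* was at -0.04 (SE 0.25) and *Tagln* at 0.92 (SE 0.85). The study also lists *Rgs5* and *Kcnj8*, both of this list, among arterial genes. Macrophage genes were at 200.3 to 629.8 against 149 to 207 CPM. Cardiomyocyte genes (102 to 139 against 72.3 to 177 CPM), platelet genes (59.4 to 73.1 against 29.6 to 81.5 CPM), which bear on *Esam* and *Pecam1* because platelets carry both, and erythroid genes (6570.0 to 14347 against 5107 to 8494 CPM) overlapped between the genotypes. The erythroid sum joins genes that went opposite ways, with 2 positive and 5 negative log2 fold changes. *Hbb-y* was separated upward at 2.57 (SE 0.54, edgeR adjusted p = 0.13) and *Alas2* downward at -1.15 (SE 0.35, edgeR adjusted p = 0.24).

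**Figure D5:**
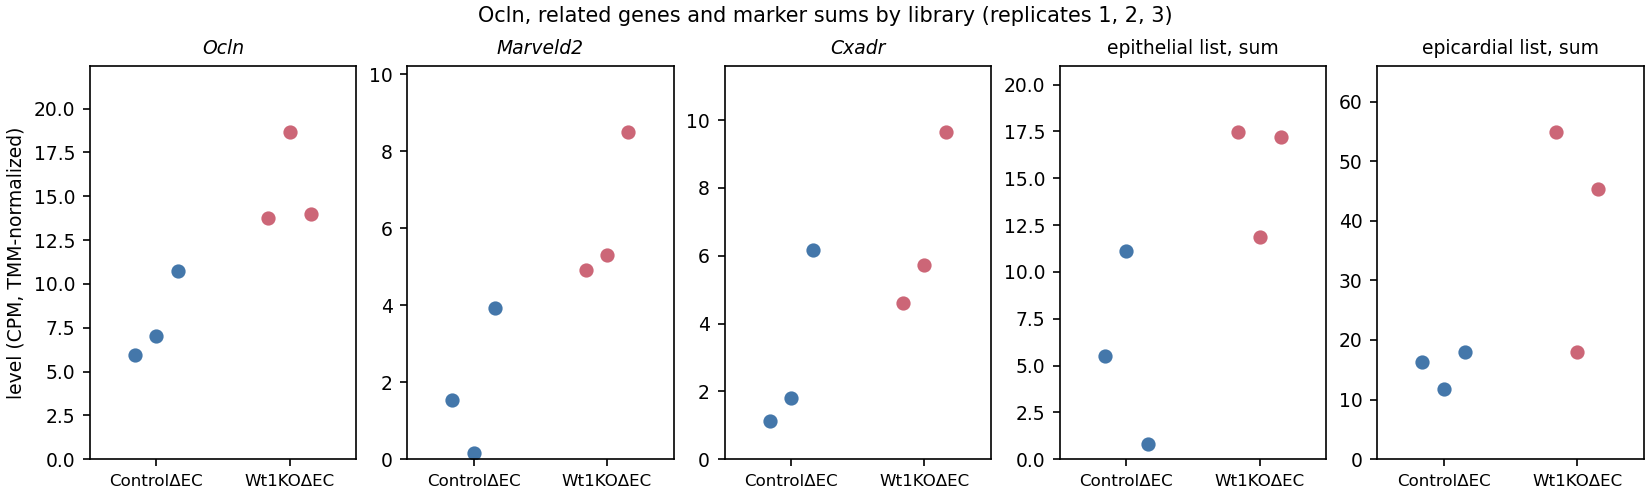
Levels of *Ocln*, *Marveld2* and *Cxadr* and summed levels of the epithelial and epicardial marker lists in every library, in CPM after TMM scaling on linear axes from 0, with *ControlΔEC* in blue, *Wt1KOΔEC* in red and replicates 1, 2 and 3 from left to right. *Ocln*, *Marveld2* and the epithelial sum are higher in every *Wt1KOΔEC* library than in any *ControlΔEC* library, while *Cxadr* and the epicardial sum overlap. *Marveld2* and *Cxadr* were named on seeing their values, and other partner genes of low level went both ways.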

How the data were processed

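RNA from sorted mGFP+ ECs was made into SMART-seq2 libraries without strand or molecular identifiers and sequenced as paired reads. Per the study's methods the authors mapped reads to GRCm39 with STAR 2.7.8a and estimated counts with RSEM 1.3.0 on GENCODE annotation, while the submitters' processing notes list GRCm38. The deposited values are expected counts per gene, whole numbers without normalization, with 0 columns left unused and 0 rows without a gene name. Sample groups and replicate numbers came from the labels. Neither labels nor methods name a batch, and library identifiers run consecutively within each genotype, so a batch and the genotype cannot be told apart.

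The 16296 genes that reached 10 counts in 2 or more libraries were compared in R 4.3.3 with edgeR 4.0.16 (TMM scaling, quasi-likelihood F test, no covariates, Benjamini-Hochberg adjustment over all genes tested), and *Wt1KOΔEC* over *ControlΔEC* is given throughout. The study used DESeq2, which was run here as an alternative (version 1.42.0, same filtered genes). DEGs here had an adjusted p under 0.05 and passed the study's fold limit of 0.58 on the log2 scale. The study's methods state a limit of 0.05 for p without naming an adjustment. Intervals are 95% intervals of the fit. CPM are normalized by TMM. Exonic lengths and gene positions came from GENCODE vM39 on GRCm39, which held 16238 of the genes tested, and promoter windows from RefSeq on GRCm38.p6. 1 list gene (*Pals1*) was matched by its gene ID. Of each partner list the text names the 2 genes with the highest mean level and the 2 with the largest absolute log2 fold change among genes with a mean of at least 10 CPM. 1 gene of the tight junction list is not reported here and was left out of its counts. For *Cldn5* and *Cdh5* it names the 3 genes of that mean level with the smallest mean absolute difference in centred log2 CPM. *Fgd5*, *Marveld2* and *Cxadr*, which are on the lists, are named for their values. The junction genes, partner lists and marker lists were chosen with earlier results of these data known.

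Alternatives were DESeq2, limma-voom (limma 3.58.1), RLE and upper-quartile factors, library size only, no filter, filterByExpr, at least 10 counts in every library, the replicate number as a block, an offset for length and GC content (natural splines, 5 degrees of freedom), both together, no fold limit, an unadjusted p and each library left out in turn. DESeq2 without the filter and edgeR's likelihood ratio test were chosen after seeing the data.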

Additional observations from a re-analysis of the deposited data

How the results depend on the processing

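No junction gene was called in any of the 19 alternative fits, of which 13 changed a setting and 6 left out a library. The count was 1 (*Ocln*) at an unadjusted p below 0.05 with the fold limit kept. The direction held in every fit for *Esam*, *Jam2*, *Jam3*, *Ocln* and *Tjp1*. Among values near 0 the sign changed for *Cdh5* (-0.086 with library size only and -0.012 with the length and GC offset), *Ctnnd1* (0.0032 with that offset and 0.0087 with it and the replicate block), *F11r* (-0.035 with library size only), *Cldn5* (0.051 with limma-voom, 0.0048 with upper-quartile factors and 0.049 with the replicate block) and *Ctnnb1* (0.0047 with upper-quartile factors). Library size alone moved the median of all genes tested to -0.18. The cause of the other changes was not tested.

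With each library left out in turn the log2 fold change ran from -0.11 to 0.31 for *Cdh5*, -0.17 to 0.035 for *Ctnnd1*, -0.16 to 0.047 for *Pecam1*, -0.23 to 0.36 for *Cldn5*, -0.57 to -0.10 for *Jam2*, -0.12 to 0.042 for *Ctnnb1*, -0.12 to 0.084 for *Jup*, -0.49 to 0.20 for *Cd99l2*, -1.36 to -0.53 for *Rap1b* and -0.89 to -0.37 for *Magi1*, and the log2 difference of the *Cldn5* to *Cdh5* ratio from -0.34 to 0.30. Partner genes called numbered 1 with DESeq2, 2 with no filter (*Rasip1* at -1.41 and *Rap1b* at -1.07), 0 to 1 with a library left out and 4 at an unadjusted p with the fold limit kept. DESeq2 put *Rap1b* at -1.07.

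By coding length *Pecam1*, *Esam*, *F11r*, *Cdh5*, *Jam2*, *Ctnnd1* and *Tjp1* took places 2, 3, 4, 5, 6, 7 and 8 in the order of levels, and without division by length *Pecam1* took place 1 and *Cldn5* place 3.

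Replicate numbers are shared between genotypes, but the deviations of same-numbered libraries correlated at only 0.066, 0.18 and 0.11, and nothing in the labels says that a number marks a litter or day. The study's methods state that its cross gave embryos of both genotypes within a litter, without saying which libraries share one. With the replicate block 5 genes were called in all against 12 without it, the log2 fold change of *Ocln* was 1.01 and no junction or partner gene was called. Each library correlated best with the library of its own number in the other genotype, a hint from the data and not from the labels.

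The number of genes called over the whole table depended strongly on the setting. It was 599 with DESeq2, 759 with DESeq2 and no filter, 432 with the likelihood ratio test, 296 with no filter, 113 with at least 10 counts in every library, 8 with limma-voom, 7 with the length and GC offset, 6 with that offset and the block, and 2 to 37 with a library left out. *Ocln* and *Jam3* had the fewest counts of the 10, and the part of depth in the width of their intervals was not tested.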
